A study of Mus musculus with 18 samples.

Results

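CHD4 is the ATPase of NuRD, a chromatin complex that slides nucleosomes and deacetylates histones and is best known for repressing genes, although it also sits at active promoters and enhancers. GFI1 is a zinc finger repressor that neutrophil development requires. Dimethylation of histone H3 at lysine 4 (H3K4me2) marks promoters and enhancers that are active or poised for later use.

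The regions described here are promoters of protein-coding genes, taken as the 2 kb before the transcription start site (TSS) and the 500 bp after it, that held the summit of a CHD4 peak in granulocyte-monocyte progenitors (GMPs) while the RNA of their gene was almost undetected in the same cells. A promoter was a member when the mean of its gene was below 1 TPM (a transcript level scaled for transcript length and for the total of the library) over the GMP libraries. Of 21951 protein-coding promoters, 1775 held a CHD4 summit. For 1347 of these the gene was expressed in GMPs, 5 had no row in the expression table and 423 were members. They were compared with 10089 other promoters of genes below 1 TPM in GMPs and with the 1347 CHD4 promoters of expressed genes. Since members were chosen by their GMP TPM and by the CHD4 list of WT GMPs, both are given as descriptions without a test.

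All cells came from the bone marrow of C57BL/6 mice aged 6 to 12 weeks. CHD4 ChIP-seq was done in GMPs of wild type (WT) and *Gfi1*-/- mice, and H3K4me2 ChIP-seq in WT GMPs, pre-neutrophils (preNeu) and mature neutrophils (matNeu), with 1 library each. RNA-seq had 3 libraries for each of WT GMPs, preNeu and matNeu, and RNA of *Gfi1*-/- cells was not analysed here. The cell type given in the labels' titles differed from that in their cell type field for 13 of 18 samples, and the titles were followed. GMPs were sorted as lineage-negative cells with c-KIT, CD34 and CD16/32 on their surface, and preNeu and matNeu as MAC-1+ GR1+ cells separated by c-KIT, CXCR4 and CXCR2. The bone marrow of several bones was pooled before sorting, and no source used here says whether the libraries of a cell type came from different mice, so that p-values measure the spread between these libraries, which may be technical.

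The RNA carried the markers of the titles. The sum of *Cd34*, *Kit*, *Mpo*, *Elane* and *Prtn3* was 42400 to 43900 TPM in GMPs and 9.13 to 29.9 TPM in matNeu. The sum of *Ngp*, *Ltf*, *Camp*, *Lcn2* and *Chil3* was 145000 to 171000 TPM in preNeu, and that of *Cxcr2*, *Mmp8*, *Mmp9*, *Retnlg*, *Ccl6* and *Il1b* was 31500 to 36300 TPM in matNeu. Replicate libraries correlated with r of 0.961 to 0.971 on the log2(TPM + 1) scale across genes, which are not independent replicates. TPM keeps no read depth, so the depth is unknown and a value of 0 means only that the gene is listed at 0.

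The sequences below are the 151 bases around the CHD4 summit of 11 members, written 5′ to 3′ in the direction of the gene, from GRCm38. They were chosen because the results turn on these genes, and windows that reach into a UTR were left out. Capitals mark matches, on either strand, to the PU.1 core GAGGAAGT, the C/EBP core TTGCNNAA, the RUNX core TGTGGT and the GFI1 core AAATCA, and no marked stretch here overlaps another. The first set are members whose genes were switched on in preNeu and matNeu. *P2ry13* and *Cd101* encode a purinergic receptor and an immunoglobulin-like inhibitory receptor, *Ltb* the membrane anchor of lymphotoxin, and *Olfml2b* an extracellular matrix protein.
P2ry13 (chr3:59211878-59212028, minus strand): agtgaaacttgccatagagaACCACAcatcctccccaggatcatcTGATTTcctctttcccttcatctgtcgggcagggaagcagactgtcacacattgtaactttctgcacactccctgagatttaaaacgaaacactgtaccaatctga
Cd101 (chr3:101030796-101030946, minus strand): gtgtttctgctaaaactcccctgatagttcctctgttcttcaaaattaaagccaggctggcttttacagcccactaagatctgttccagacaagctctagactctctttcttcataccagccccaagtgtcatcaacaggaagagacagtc
Ltb (chr17:35193131-35193281, plus strand): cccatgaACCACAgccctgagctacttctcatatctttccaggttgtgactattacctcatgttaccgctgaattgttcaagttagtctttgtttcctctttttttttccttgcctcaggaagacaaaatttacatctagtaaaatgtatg
Olfml2b (chr1:170644322-170644472, plus strand): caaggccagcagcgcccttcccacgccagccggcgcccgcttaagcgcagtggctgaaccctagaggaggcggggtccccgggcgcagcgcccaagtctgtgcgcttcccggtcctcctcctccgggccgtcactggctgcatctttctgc

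The second set are members on in matNeu. *Sirpb1a* and *Sirpb1b* are neighbouring signal-regulatory protein genes, whose summit windows were 96.2% identical over 133 aligned bases. *Cxcl2* encodes a chemokine that attracts neutrophils and *Macc1* a regulator of MET transcription.
Sirpb1a (chr3:15428038-15428188, minus strand): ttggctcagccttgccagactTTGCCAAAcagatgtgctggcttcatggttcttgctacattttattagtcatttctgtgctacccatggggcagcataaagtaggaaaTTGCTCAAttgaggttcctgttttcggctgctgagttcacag
Sirpb1b (chr3:15576610-15576760, minus strand): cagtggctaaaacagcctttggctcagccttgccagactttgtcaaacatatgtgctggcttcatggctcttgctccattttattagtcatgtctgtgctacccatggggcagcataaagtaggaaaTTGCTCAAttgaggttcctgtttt
Cxcl2 (chr5:90903301-90903451, plus strand): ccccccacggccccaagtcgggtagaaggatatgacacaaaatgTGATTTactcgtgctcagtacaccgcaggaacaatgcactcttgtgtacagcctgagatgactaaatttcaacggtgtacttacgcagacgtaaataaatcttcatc
Macc1 (chr12:119313145-119313295, plus strand): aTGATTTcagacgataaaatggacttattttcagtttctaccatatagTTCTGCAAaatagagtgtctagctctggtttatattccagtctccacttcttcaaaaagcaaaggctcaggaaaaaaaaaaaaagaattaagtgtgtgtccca

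The third set carried strong CHD4 peaks but stayed below 1 TPM in all 9 RNA-seq libraries. *Olfr432* is an olfactory receptor gene, *Serpinb12* encodes a serine protease inhibitor of epithelia and *Xcr1* the chemokine receptor of cross-presenting dendritic cells.
Olfr432 (chr1:174048321-174048471, plus strand): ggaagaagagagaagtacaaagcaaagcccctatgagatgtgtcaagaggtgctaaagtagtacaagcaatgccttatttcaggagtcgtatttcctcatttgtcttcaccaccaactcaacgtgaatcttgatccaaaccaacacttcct
Serpinb12 (chr1:106933791-106933941, plus strand): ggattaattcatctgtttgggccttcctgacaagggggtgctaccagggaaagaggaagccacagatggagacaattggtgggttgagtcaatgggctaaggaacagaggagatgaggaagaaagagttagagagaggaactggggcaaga
Xcr1 (chr9:123863281-123863431, minus strand): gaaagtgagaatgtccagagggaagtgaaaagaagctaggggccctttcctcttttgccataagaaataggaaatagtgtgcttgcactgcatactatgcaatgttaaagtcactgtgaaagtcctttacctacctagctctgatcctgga

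None of these windows held an annotated exon, and the one at *P2ry13* lies in an intron of the overlapping gene *Med12l*. In windows of 201 bp around the summits of all 423 members, the PU.1 core was found in 9.69%, the C/EBP core in 13.5%, the RUNX core in 20.1% and the GFI1 core in 12.5%. At the summits of CHD4 promoters of expressed genes the shares were 8.33%, 14.4%, 15.6% and 7.58%, at all 35728 CHD4 summits 11.8%, 17.3%, 24.0% and 12.1%, and in windows of the same length on the TSS of every protein-coding gene 2.28%, 5.72%, 10% and 6.92%. The GFI1 core was found at 53 member summits (95% Wilson interval 9.71 to 16%, against 6.29 to 9.12% at expressed genes), but 10 of these were weakly enriched peaks of predicted genes on chromosomes 9 and 14. Without those 10 members, a choice made after their values were seen, the share was 10.4% of 413 (7.82 to 13.7%), which overlaps the interval at expressed genes. The intervals of the other 3 cores overlapped between these groups as well. The windows of members had a median GC content of 49.8%, those of expressed genes 52.2% and those on the TSS 58.7%, and the part of base composition in these shares was not tested.

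The strongest peak of a member had a median fold enrichment of 7.74 over background in the WT list, with a range from 2.45 to 86.9, and at CHD4 promoters of expressed genes the median was 7.42. The summit lay within 500 bp of the TSS at 263 members and upstream of it at 305. By annotation 225 of the 423 summits were intergenic, 73 intronic, 76 in a UTR and 49 in another exon. A single summit was found at 333 members and 2 to 4 summits at 90. The members' promoters had a median CpG ratio (observed over expected) of 0.277, near the 0.225 of other promoters of silent genes and below the 0.471 of CHD4 promoters of expressed genes. The summit of 35 members also lay in the promoter of another gene that GMPs express, 18 members shared their strongest peak in 9 pairs, such as *Fpr2* with *Fpr3*, and 93 lay within 50 kb of another member, so that members are not independent of each other.

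A member counted as switched on in a stage when it had at least 1 TPM in every library of the stage and exceeded every GMP library. In preNeu 43 of 423 members were switched on, or 10.2% of them, with a 95% Wilson interval of 7.63 to 13.4%. Such intervals reflect counting error alone. Over all 10512 protein-coding genes below 1 TPM in GMPs the share was 2.09%, and among the 10089 other silent genes it was 1.75% (1.52 to 2.03%). In matNeu 81 members were switched on, a share of 19.1% (15.7 to 23.2%), against 4.83% of all silent genes and 4.23% of the others (3.86 to 4.64%). At CHD4 promoters of expressed genes 27% passed the same rule in preNeu and 35.1% in matNeu. There it marks a rise of a gene that GMPs already express. The members' shares were thus higher than those of other genes silent in GMPs, and lower than those of CHD4 promoters of expressed genes. The intervals do not test these differences, since promoters are not replicates and members are not independent of each other. In bulk RNA fewer cells of a type and less RNA per cell cannot be told apart.

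Both stages shared 35 of these members, while 8 were on in preNeu but did not pass in matNeu and 46 were on in matNeu but did not pass in preNeu. These classes held 8.27%, 1.89% and 10.9% of members, against 1.12%, 0.634% and 3.11% of other silent genes. Neither stage had the other 334 members on, a share of 79% against 95.1% of other silent genes. Of these 334 members, 225 were below 1 TPM in all 9 libraries, and 83 were listed at 0 throughout. The levels reached differed widely, as the mean exceeded 10 TPM for 15 members in preNeu and 46 in matNeu, and 100 TPM for 5 and 26. Summed over the 423 members, the RNA was 89.9 to 102 TPM in the GMP libraries, 1663 to 1839 TPM in preNeu and 10090 to 11280 TPM in matNeu, where the GMP values are low by the choice of the members. A few genes weigh heavily in the matNeu sum, with means of 1202 TPM for *Lilrb4a*, 999 TPM for *Cd300ld* and 940 TPM for *Sirpb1b*. Counts by level and sums were not taken over the other silent genes, whose highest mean in matNeu was 9972 TPM.

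Fewer members than other silent genes were listed at 0 in every GMP library, 150 of 423 against 6146 of 10089, so the shares were also compared within ranges of GMP level. Among genes at 0 TPM in every GMP library, 8.67% of 150 members were on in matNeu (5.13 to 14.3%) against 1.42% of 6146 others (1.15 to 1.74%), and in preNeu 1.33% (0.366 to 4.73%) against 0.423% (0.289 to 0.619%), where the intervals overlap. Between 0.1 and 0.5 TPM the matNeu shares were 25.4% of 134 members (18.8 to 33.4%) and 8.44% of 1919 others (7.28 to 9.77%). Nearest the threshold, between 0.5 and 1 TPM, they were 31.7% of 82 members (22.6 to 42.4%) and 18.8% of 768 others (16.1 to 21.7%). The share was thus higher among members in every range in matNeu, and it grew with the GMP level in both groups. The members just under the threshold were *Olfr56*, *Ropn1l* and *Slc1a4*, none of them on in either stage, and the CHD4 promoters just above it were *Gm14548* (1.01 TPM), *Plod2* (1.01 TPM) and *Acot6* (1.02 TPM). Of these non-members, *Gm14548* had a mean of 15.6 TPM in preNeu and 596 TPM in matNeu. *Acot6* had means of 0.147 and 1.55 TPM, and *Plod2* was at 0 in both stages.

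**Figure D1:**
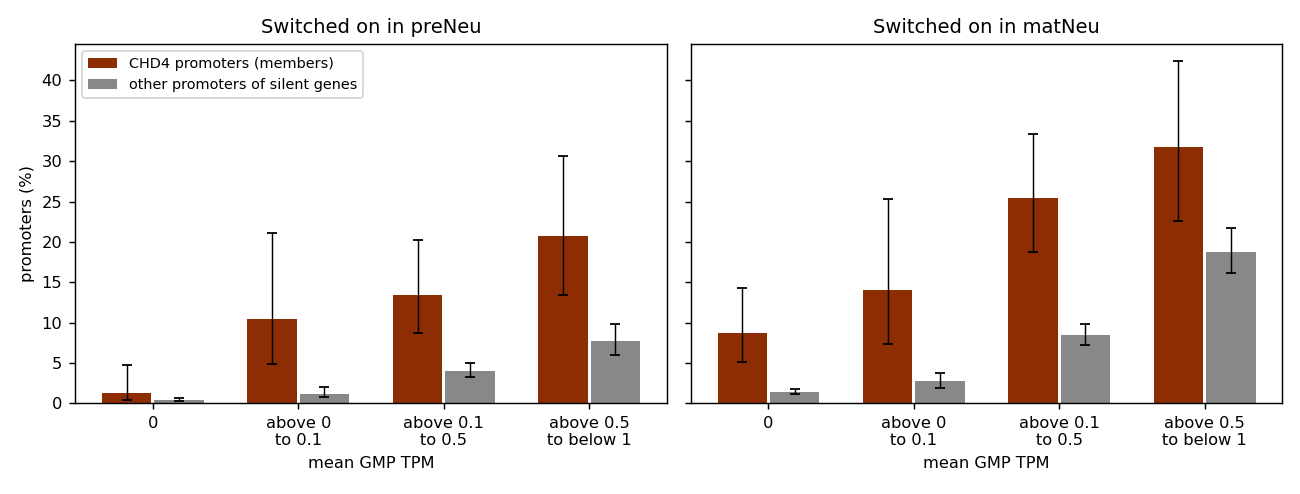
Share of promoters whose gene was switched on in preNeu (left) and matNeu (right), in percent on the vertical axis, by the mean GMP TPM of the gene on the horizontal axis, for the members (brown) and for other promoters of silent genes (grey). Error bars are 95% Wilson intervals over promoters, and in matNeu the members exceed the others in each range, from 8.67% against 1.42% at 0 TPM to 31.7% against 18.8% just under 1 TPM.

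The highest members of preNeu were led by *St3gal5*, the sialyltransferase that makes ganglioside GM3 (chromosome 6, 72097592 to 72154571, plus strand). Its RNA was 0, 1.12 and 0.179 TPM in the GMP libraries, 502, 516 and 574 TPM in preNeu, and 247, 280 and 244 TPM in matNeu. *Olfml2b* (chromosome 1, 170644532 to 170682789, plus strand) was at most 0.0876 TPM in GMPs, 228, 225 and 259 TPM in preNeu, and 10.4, 13 and 9 TPM in matNeu. *Inhba*, the activin A subunit (chromosome 13, 16011851 to 16031621, plus strand), was 0.101 to 0.783 TPM in GMPs, 185, 236 and 201 TPM in preNeu, and 1.75, 2.03 and 3.62 TPM in matNeu. In all 3 genes each preNeu library was above each library of the other cell types, so that these members peaked at the intermediate stage.

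Receptors formed much of the rest. *Fpr2*, a formyl peptide receptor that guides neutrophils to bacteria and injured tissue (chromosome 17, 17887824 to 17893952, plus strand), was listed at 0 in all GMP libraries, at 93.5, 93.4 and 73.4 TPM in preNeu, and at 274, 326 and 252 TPM in matNeu. Its neighbour *Fpr3*, which shared the same CHD4 peak, stayed at 0 to 0.469 TPM in every library. The purinergic receptor gene *P2ry13* was 0.217 to 1.10 TPM in GMPs, 12.7, 11.8 and 19.7 TPM in preNeu, and 158, 148 and 198 TPM in matNeu. *Lilrb4a*, an inhibitory leukocyte immunoglobulin-like receptor, was 0 to 1.77 TPM in GMPs, 121, 147 and 108 TPM in preNeu, and 908, 1295 and 1402 TPM in matNeu. This name is that of the expression table, while the annotation that defined the promoters names the same gene *Gm49339*. Its summit also lies in the promoter of *Lilr4b*, a near-identical gene that GMPs express, and reads of such a pair may be split between the copies, so its level is uncertain.

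*Ankrd22*, an ankyrin repeat gene, and *Tnfsf13b*, which encodes the B cell survival factor BAFF, were on at similar levels in both stages. *Ankrd22* was 97.4 to 127 TPM in preNeu and 121 to 156 TPM in matNeu, and *Tnfsf13b* was 75 to 88.8 TPM and 65.0 to 71.9 TPM. *A530064D06Rik*, whose product is not described here, was 42.4 to 58.2 TPM in preNeu and 372 to 495 TPM in matNeu. The transporter gene *Slc6a12* was 25.2 to 43.3 TPM in preNeu and 3.85 to 9.21 TPM in matNeu.

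Several members were low in preNeu and abundant in matNeu. *Cd300ld*, an activating receptor of myeloid cells (chromosome 11, 114982274 to 114989922, minus strand), was 0.143 to 0.347 TPM in GMPs, 3.05, 4.83 and 4.53 TPM in preNeu, and 916, 931 and 1150 TPM in matNeu. *Cd101* was at most 0.0554 TPM in GMPs, 10.2, 12.4 and 13.1 TPM in preNeu, and 398, 385 and 415 TPM in matNeu. *Tlr13*, which senses bacterial ribosomal RNA, was 8.12 to 12.5 TPM in preNeu and 341 to 428 TPM in matNeu. These genes showed no overlap between the stages, and neither did *Bst1*, *Tarm1* and *Klra2*, which were at most 2.65, 6.92 and 4.96 TPM in preNeu and at least 242, 290 and 301 TPM in matNeu.

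The signal-regulatory protein genes *Sirpb1a*, *Sirpb1b* and *Sirpb1c* and the predicted gene *Gm5150* lie close together on chromosome 3. *Sirpb1b* was 0.407 to 0.783 TPM in preNeu and 942, 902 and 976 TPM in matNeu, *Sirpb1a* was 0 to 1.92 TPM and 478, 389 and 404 TPM, *Sirpb1c* was 0.167 to 1.92 TPM and 404, 382 and 430 TPM, and *Gm5150* was 0.787 to 1.21 TPM and 516, 583 and 574 TPM. All 4 carried CHD4 in both genotypes, with fold enrichments of 16.1 to 47.2 in WT GMPs. Such paralogs can share reads, so the split among them is uncertain, but none of the 4 exceeded 1.92 TPM in any GMP or preNeu library.

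**Figure D2:**
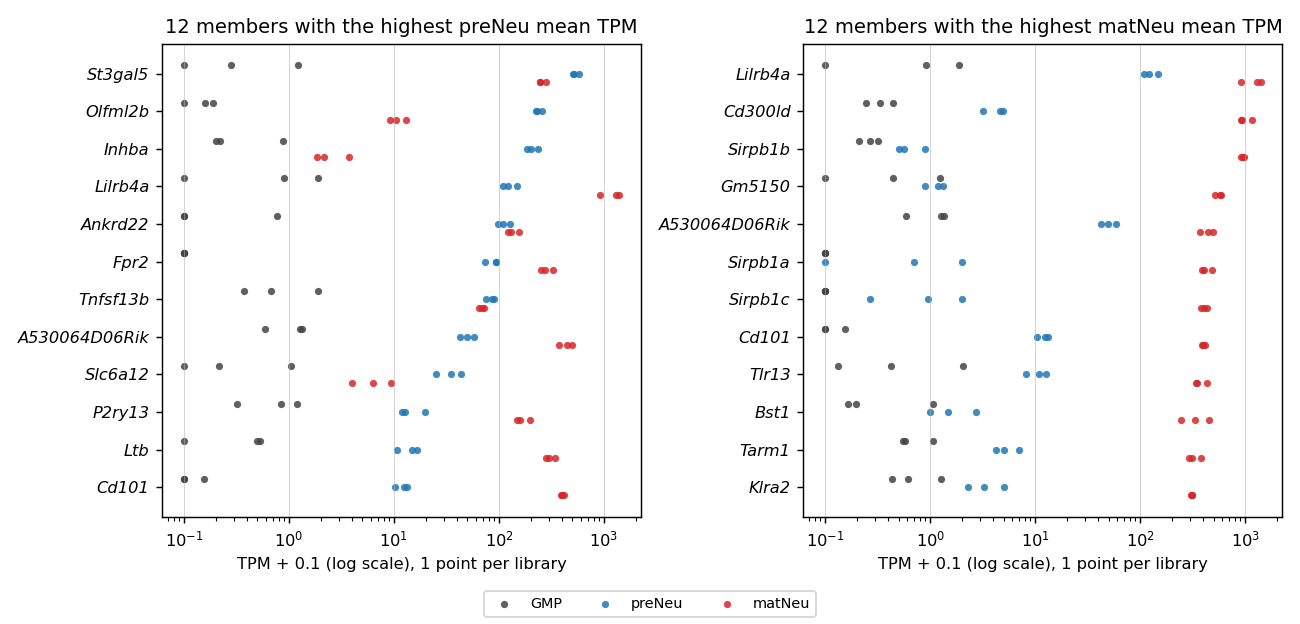
TPM + 0.1 on a log scale (horizontal axis) of the 12 members with the highest mean in preNeu (left) and the 12 with the highest in matNeu (right) among those switched on there, with 1 point per library for GMP (grey), preNeu (blue) and matNeu (red). *Inhba* and *Olfml2b* lie at 185 TPM or more in preNeu and at 13 TPM or less in the other cell types, while *Sirpb1a*, *Sirpb1b*, *Sirpb1c* and *Cd300ld* reach at least 382 TPM in each matNeu library and at most 4.83 TPM in the others.

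MatNeu were compared with preNeu by limma on log2(TPM + 1) across all genes that reached 1 TPM in 3 or more libraries. The difference itself does not use the GMP levels that chose the members, but the GMP libraries entered the filter and the estimate of the spread. Only 119 of the 423 members passed the filter, and as their GMP level was low by choice, they passed it mainly through preNeu or matNeu. Of these, 71 were higher in matNeu and 11 lower at an adjusted p (Benjamini-Hochberg over all genes) below 0.05, and 37 were not called. Over all 13061 genes tested, which could also pass through GMPs, 22.9% were higher and 39.8% were lower, so these shares are not a measure of how the members differ. With every gene above 0 TPM in any library, 81 of 340 members were higher and 16 lower, against 15.3% and 24% of 20749 genes. With the preNeu and matNeu libraries alone, 69 members were higher and 11 lower. When TPM was rescaled to the same median over genes expressed in all libraries, the median log2 difference of all genes was 0.07 in place of -0.32, 4490 were higher and 4019 lower in place of 2995 and 5202, and 88 of 126 members tested were higher and 10 lower.

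The 5 largest increases were those of the *Sirpb1* neighbourhood and *Cxcl2*. These genes were low in GMPs and preNeu and met the filter mainly through matNeu, where they were high. Their p-values describe genes selected in that way and are not independent support. *Sirpb1b* was higher in matNeu by 9.25 ± 0.20 (log2 difference ± SE, n = 3 libraries each, limma adjusted p = 3.13e-10), *Gm5150* by 8.11 ± 0.28 (limma adjusted p = 2.83e-09), *Sirpb1a* by 7.98 ± 0.34 (limma adjusted p = 1.29e-08) and *Sirpb1c* by 7.78 ± 0.31 (limma adjusted p = 7.54e-09). *Cxcl2* followed with 7.67 ± 0.33 (limma adjusted p = 1.25e-08), from at most 0.324 TPM in preNeu to 186, 206 and 418 TPM in matNeu. *Ptgs2*, the inducible cyclooxygenase that makes prostaglandins, was 1.96, 0 and 0 TPM in preNeu and 423, 238 and 222 TPM in matNeu, and rose by 7.62 ± 0.42. *Cd300ld* rose by 7.62 ± 0.20 and *P2ry13* by 3.45 ± 0.27. *Fpr2* rose by 1.70 ± 0.17.

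Among members that fell, *Inhba* decreased by 5.94 ± 0.28 (limma adjusted p = 2.75e-08), *Olfml2b* by 4.35 ± 0.20 (limma adjusted p = 1.89e-08), *Slc6a12* by 2.29 ± 0.37 (limma adjusted p = 0.000246) and *Igf1*, the insulin-like growth factor, by 1.78 ± 0.29 (limma adjusted p = 0.000291). *Adgre4*, an adhesion receptor of macrophages, decreased by 1.51 ± 0.46 (limma adjusted p = 0.0153), a call that was lost without preNeu replicate 3, without matNeu replicate 2 and with a pseudocount of 0.1, where its adjusted p ranged up to 0.0636 over 14 alternatives. *Igf1* and *Adgre4* met the filter mainly through preNeu, where they were higher, so the same limit holds for their p-values. *St3gal5* decreased by 1.04 ± 0.24, and lost its call with a pseudocount of 0.1 and when TPM was rescaled to the same median (limma adjusted p of up to 0.214). The other members called lower included *Aplnr*, *Plekhg1*, *Mertk* and *Edaradd*, of which *Aplnr* lost its call with a pseudocount of 0.1 and *Plekhg1* under quantile normalization. *Aplnr*, *Mertk* and *Edaradd* also met the filter mainly through preNeu, so the same limit holds for their calls. *Ankrd22* and *Tnfsf13b* were not called, with differences of 0.29 ± 0.23 and -0.27 ± 0.26, although *Ankrd22* was called higher when TPM was rescaled to the same median (limma adjusted p = 0.00494).

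**Figure D3:**
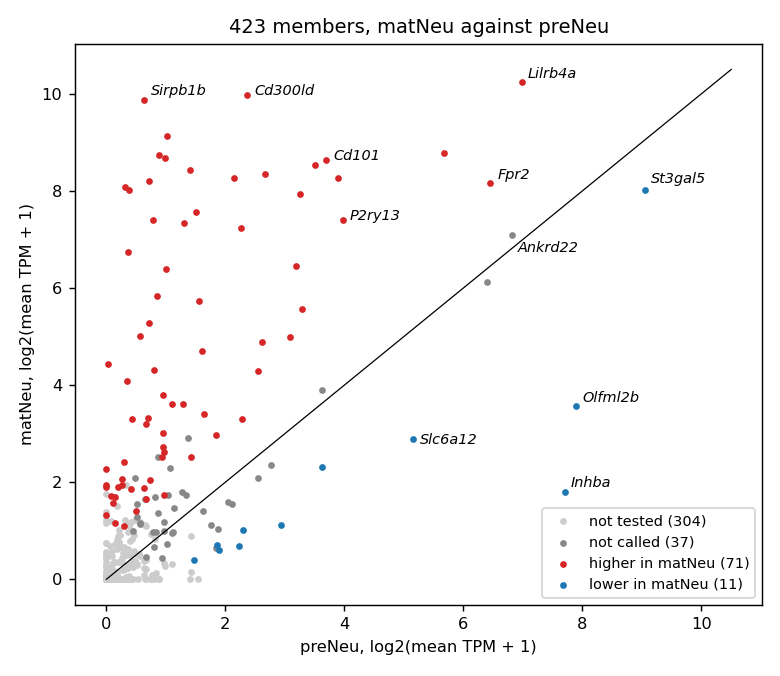
Mean of the matNeu libraries (vertical axis) against the mean of the preNeu libraries (horizontal axis), both as log2(mean TPM + 1), with 1 point for each of the 423 members and the line of equality. The 71 members called higher in matNeu (red) fill the upper left, the 11 called lower (blue) include *Inhba* and *Olfml2b* at the lower right, and the 304 that failed the filter on low values (light grey) gather near the origin.

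The 8 members on in preNeu but not in matNeu included *Igf1*, *Mertk*, *Aplnr*, *Adgre4*, *Ms4a7*, *Edaradd* and *Ptgdr*, and all 8 had low levels of 1.01 to 8.80 TPM in preNeu. The mean of *Ptgdr* was higher in matNeu, at 1.78 TPM against 1.21 TPM in preNeu. Neither *Ptgdr* nor *Ms4a7* was called between the stages. *Mertk* encodes a receptor for the uptake of dying cells. A list of 10 macrophage markers, added after these values were seen, had a summed level of 272 to 427 TPM in preNeu, 48.4 to 56.1 TPM in GMPs and 106 to 156 TPM in matNeu. *Vcam1* was the largest part of the preNeu and GMP sums, at 149 to 236 TPM and 22 to 27.9 TPM. All markers of the list but *Timd4*, at 0.406 to 0.820 TPM, exceeded 1 TPM in every preNeu library, and *C1qa*, *C1qb* and *C1qc* were 22.7 to 42.0 TPM there against 0 to 2.37 TPM in GMPs. *Adgre1* and *Cd163* did not follow them. *Adgre1* was 10.7 to 14.9 TPM in GMPs, 7.45 to 13.9 TPM in preNeu and 75.7 to 97 TPM in matNeu, where it made up most of the sum. *Cd163* was 4.62 to 6.48 TPM in GMPs and 3.29 to 8.06 TPM in preNeu. The part of such cells in the result was not tested.

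B cell genes appeared among the members too. *Bank1*, an adaptor of B cell receptor signaling, was 8.56 to 12.9 TPM in preNeu and 11.1 to 16.7 TPM in matNeu, and *Blnk* was 1.91 to 5.89 TPM and 5.63 to 11.2 TPM. Of the B cell markers, *Cd79a* was 0 to 0.603 TPM in GMPs, 5.68 to 8.58 TPM in preNeu and 16.2 to 33.1 TPM in matNeu, and *Ms4a1* was 0.421 to 0.523, 2.13 to 2.84 and 8.33 to 16 TPM. Both were highest in matNeu replicate 3. *Pax5* was listed at 0 in every GMP library and was 1.46 to 3.06 TPM in matNeu. Of the 5 B cell markers *Cd79b* alone went the other way. It was 77.9 to 93.7 TPM in GMPs, 17.3 to 27.4 TPM in preNeu and 25.1 to 53.9 TPM in matNeu. With it, the 5 summed to 78.9 to 94.5 TPM in GMPs, 26 to 45.3 TPM in preNeu and 61.2 to 133 TPM in matNeu. *Siglech*, a marker of plasmacytoid dendritic cells that is itself a member, was 6.60 to 11.6 TPM in matNeu, while *Flt3* was 0.484 to 1.68 TPM there. The part of other cells in these members was not tested. The other marker lists were low or lower than in GMPs in both neutrophil stages, with T and NK cell markers at most 3.36 TPM in sum, erythroid 15.8 TPM, megakaryocyte 10 TPM and stroma and endothelium 18.5 TPM, while those of eosinophils, basophils and mast cells summed to 118 to 169 TPM in preNeu and at most 9.32 TPM in matNeu. The 6 monocyte and dendritic markers summed to 544 to 674 TPM in GMPs, 17.2 to 36.5 TPM in preNeu and 270 to 366 TPM in matNeu, where *Csf1r* made up 253 to 350 TPM.

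Among all silent genes, 423 of 10512 were members. Of 15 innate surface receptor genes that were silent in GMPs, 10 were members, and 7 of these were on in matNeu and 5 in preNeu. Besides *Lilrb4a*, *Cd300ld* and *Tlr13*, they were *Clec4n*, the fungal sensor Dectin-2, at 64.1 to 93.0 TPM in matNeu, *Clec4a1* at 21.7 to 32.3 TPM, *Clec1b* at 5.60 to 8.59 TPM and *Siglech*. *Clec12b*, *Cd300e* and *Tlr11* were not on. The other 5 silent genes of the list had no CHD4 summit at their promoter, and 2 of them were on in a stage.

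Of 23 silent chemoattractant and cytokine receptor genes, 7 were members, and *Fpr2*, *Cxcr3* at 9.10 to 16 TPM and the eotaxin receptor gene *Ccr3* at 2.03 to 4.52 TPM were on in matNeu. *Fpr3*, *C3ar1*, *Ccr9* and *Il7r* were not on, and 7 of the other 16 genes were on in a stage without a CHD4 summit. Of 17 silent cytokine genes, 6 were members, with *Ltb* at 279 to 339 TPM and *Cxcl2* on in matNeu, while *Il1a*, *Il10*, *Il12b* and *Ccl2* were not on. None of the other 11 silent cytokine genes was on. Granule and effector genes were mostly not members, as 2 of 16 silent ones had a CHD4 summit, *Ptgs2* and the protease inhibitor gene *Wfdc17*, the latter at 103 to 207 TPM in matNeu, and 13 of the other 14 were on without one.

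Further lists held genes of other tissues and lineages. Of 145 silent developmental transcription factor genes, 3 were members, among them *Lhx8* and *Tbx3*, and of 166 silent ion channel genes 3 (*Scn2b*, *Scn4b* and *Kcnab3*), with *Scn2b* on in matNeu at 1.39 to 2.83 TPM. None of 14 silent lymphoid regulators was a member, and 5 of them were on. Of 178 silent solute carriers, 10 were members and 4 of these were on in matNeu, while 9 of the other 168 were on in a stage. The members on included the sugar phosphate exchanger family gene *Slc37a3* at 47.6 to 59.1 TPM, whose summit also lies in the promoter of *Rab19*, and *Slc16a14* at 19.6 to 22.7 TPM. Of 20 silent histone cluster genes, 15 were members, and all 15 carried H3K4me2 in GMPs, preNeu and matNeu. Transcripts of these genes mostly lack a poly(A) tail and the RNA libraries were made with an mRNA kit, so that a low TPM does not show that they are silent. *Hist1h2bb* alone was on, in matNeu, at 1.09 to 13.4 TPM. Over all 423 members 10.2% were on in preNeu and 19.1% in matNeu, and the lists hold too few members for a share of their own.

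In the H3K4me2 lists a peak overlapped 275 of the 423 member promoters in GMPs, a share of 65.0% (60.4 to 69.4%). In preNeu it was 303 (71.6%, 67.2 to 75.7%) and in matNeu 290 (68.6%, 64.0 to 72.8%). Over all 21951 protein-coding promoters the shares were 59.4%, 59.3% and 56.9%. Other promoters of silent genes were marked in 26.0%, 23.2% and 19.3% of cases, and CHD4 promoters of expressed genes in 95%, 96.5% and 95.5%, so the members lay between these groups at every stage. Within the genes at 0 TPM in every GMP library, 49.3% of members and 16.5% of others carried the mark in GMPs. The peaks at members had a median fold enrichment of 3.44 in GMPs, 7.08 in preNeu and 5.98 in matNeu in their own lists.

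The order of the stages depended on how the lists were read. They held 37643, 49578 and 44094 peaks over 49.8, 97.9 and 80.4 Mb. With the same covered length of best peaks, the members' shares were 65.0% in GMPs, 29.3% in preNeu and 40.7% in matNeu, and when peaks needed a -log10 q-value of 5 or more they were 27.2%, 58.4% and 53.7%. A difference between stages at a single promoter set is therefore not shown by these lists. Groups of promoters within a stage were read from the same list.

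Within a stage, members that were switched on and members that were not had close shares of H3K4me2 in GMPs, 65.2% of 89 and 65.0% of 334. In preNeu the shares were 86.5% and 67.7%, and in matNeu 86.5% and 63.8%. With the same number of peaks in each list the preNeu shares were 82% and 61.7% and the matNeu shares 86.5% and 60.5%. With the same covered length they were 32.6% and 28.4% in preNeu, a much smaller gap, and 55.1% and 36.8% in matNeu. H3K4me2 was called in matNeu but in neither preNeu nor GMPs at 13 members, and in preNeu and matNeu but not in GMPs at 44 members, or 10.4% (7.84 to 13.7%), against 1.92% of other silent promoters (1.67 to 2.21%). At CHD4 promoters of expressed genes the latter pattern was found in 2.82%. With a -log10 q of at least 5 it was found at 27% of members, 4.81% of other silent promoters and 58% of expressed genes. Whether members exceeded expressed genes thus depended on the reading. With all peaks, this pattern was found at 23.6% of the members switched on and 6.89% of those that were not, and the first group held *Fpr2*, *Cd300ld*, *Tlr13*, *Bst1*, *Tarm1*, *Klra2* and *P2ry12*. With the same covered length 2 members had this pattern. Of the 232 members marked at all 3 stages, 21.1% were on in matNeu, and of the 77 marked at none, 10.4% (5.36 to 19.2%). At other silent promoters the same shares were 9.59% of 1700 and 2.38% of 7129. With the mark in preNeu and matNeu but not in GMPs, 43.2% of 44 members and 22.7% of 194 others were on in matNeu. In both groups the share on was thus higher at promoters with these marks than at those marked at no stage.

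Single promoters give examples, with the same limit on reading between stages. At *Fpr2* no H3K4me2 peak was listed in GMPs, while in preNeu and matNeu peaks of 15951 and 40103 bp covered the whole promoter, with fold enrichments of 7.90 and 8.01. At *Olfml2b* a GMP peak covered 695 bp of the promoter, and peaks in preNeu and matNeu covered all 2501 bp, also in matNeu where its RNA had fallen to 9 to 13 TPM. At *Inhba* the covered length was 698 bp in GMPs, 1489 bp in preNeu and 862 bp in matNeu. *Macc1*, with one of the strongest CHD4 peaks, carried H3K4me2 over 924 bp in GMPs and none in the later lists, and its RNA was 1.07 to 1.36 TPM in matNeu.

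**Figure D4:**
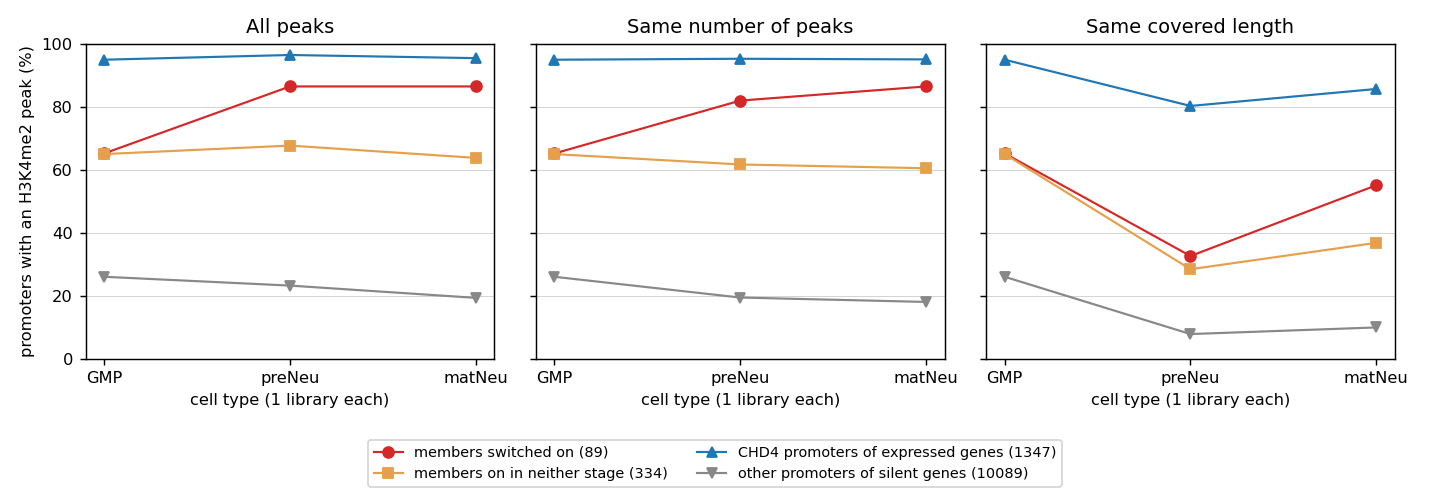
Share of promoters with an H3K4me2 peak (vertical axis, percent) in GMP, preNeu and matNeu, with all peaks (left), the same number of best peaks in each list (middle) and the same covered length (right). Members switched on (red circles) and members not on (orange squares) start together at 65.2% and 65.0% in GMPs and separate in matNeu in each panel, CHD4 promoters of expressed genes (blue triangles) lie highest and other promoters of silent genes (grey triangles) lowest, while the course from stage to stage differs between panels.

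The ATAC-seq lists labelled preNeu and matNeu held the same peaks and were read as 1 list of unresolved stage. It covered 21% of members, 4.64% of other promoters of silent genes and 64.7% of CHD4 promoters of expressed genes. The share over all protein-coding promoters was 35.8%. Of the members on in both stages 51.4% were in the list (35.6 to 67.0%), of those on in matNeu but not in preNeu 28.3% (17.3 to 42.5%), and of those on in neither 17.4% (13.7 to 21.8%).

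In the CHD4 list of *Gfi1*-/- GMPs a peak overlapped the strongest WT peak of 101 of the 423 members, a share of 23.9% (20.1 to 28.2%). Over all 1775 CHD4 promoters the share was 18.8%, and at CHD4 promoters of expressed genes it was 17.3% (15.4 to 19.4%). With 1 library for each genotype the difference between genotypes has no replicate check, and the lists held 35790 and 7316 peaks, so that a site without a peak is not shown to lack CHD4. The share was by far highest where the WT fold enrichment was highest, and did not rise steadily among the members. When the members were cut into 4 groups of about equal size by rising enrichment, it was 10.9%, 0.909%, 9.71% and 72.5% from the weakest to the strongest, against 0.536%, 1.45%, 5.59% and 68.0% at expressed genes with peaks of the same range. The intervals of members and expressed genes overlapped in the 3 stronger groups.

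The weakest group stood apart through a few peaks. Of its 11 members with a peak in both genotypes, 9 were predicted genes at the start of the assembled chromosome 9 (from 3000005 to 3035631), such as *Gm10722* and *Gm10718*, and 1 was *Gm21738* on chromosome 14. Their WT fold enrichment was only 2.45 to 2.67 while the -log10 q-value was 40.1 to 52.2, and the peaks of *Gm10718* and *Gm10717* were the same one of 1934 bp. Without these 10 members the share with a peak in *Gfi1*-/- GMPs was 22.0% of 413, by a choice made after their values were seen. The 11th was *Vnn3*, a vanin family gene that was 251 to 273 TPM in matNeu.

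**Figure D5:**
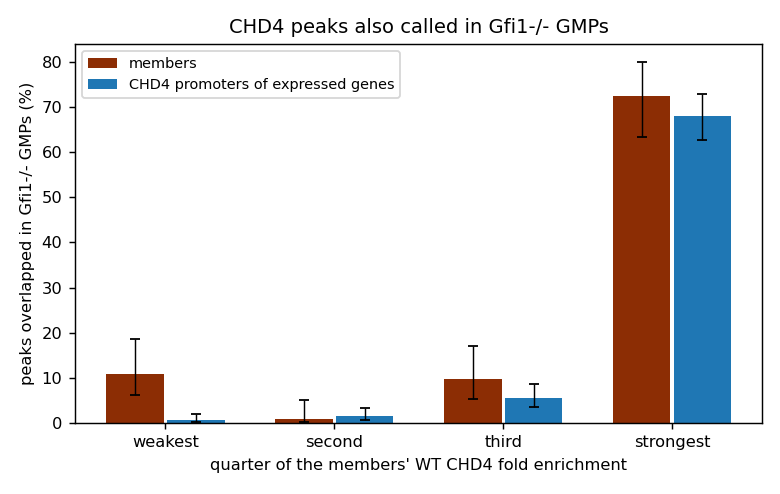
Share of strongest WT CHD4 promoter peaks overlapped by a CHD4 peak of *Gfi1*-/- GMPs (vertical axis, percent) in 4 groups of rising WT fold enrichment (horizontal axis), for members (brown) and CHD4 promoters of expressed genes (blue), with 95% Wilson intervals. In the strongest group 72.5% and 68.0% were also called in *Gfi1*-/- GMPs, and 10.9% of members in the weakest, where 10 of 11 are the predicted genes on chromosomes 9 and 14.

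The strongest CHD4 peaks of all members lay at a pair of neighbouring purinergic receptor genes on chromosome 3. *P2ry13* (59207892 to 59210882, minus strand) had a peak of fold enrichment 86.9 with its summit upstream of the TSS, and *P2ry12* (59216272 to 59262871, minus strand) one of 86.7. In *Gfi1*-/- GMPs their peaks had fold enrichments of 32.7 and 30.3 in their own list, which is not on the scale of the WT list. *P2ry12* was 0 to 0.705 TPM in GMPs and preNeu and 10.8, 18.4 and 18.7 TPM in matNeu. The next were *Olfr432* with 70.2, *Macc1* with 65.1 and *Fap*, a serine protease gene of fibroblasts, with 56.5, and these 5 were also the strongest members of the *Gfi1*-/- list. *Olfr432* was at most 0.209 TPM and *Fap* at most 0.434 TPM in any library. *Serpinb12* and the predicted gene *Gm13275*, with 42.2 and 42.6, were listed at 0 in all 9 libraries, and *Xcr1* with 41.0 was at most 0.927 TPM. A strong CHD4 peak thus stood at promoters on in matNeu and at promoters that stayed silent.

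Across the members, the share switched on in matNeu was 18.8%, 15.5%, 16.5% and 25.7% from the weakest to the strongest of these groups of WT CHD4 enrichment, and in preNeu 9.90%, 6.36%, 12.6% and 11.9%. Members on in matNeu but not in preNeu had a peak in *Gfi1*-/- GMPs in 34.8% of 46 cases (22.7 to 49.2%), those on in both stages in 31.4% of 35 (18.6 to 48.0%) and those on in neither in 21.3% of 334 (17.2 to 26.0%), intervals that overlap. *Inhba*, *Olfml2b*, *St3gal5*, *Fpr2*, *Ltb*, *Cxcl2* and *Ptgs2* had no peak in *Gfi1*-/- GMPs, and their WT fold enrichments of 3.89 to 12.7 fall in the 3 weaker groups, where few sites of either group were called in both genotypes. The *Sirpb1* cluster, *P2ry13*, *P2ry12*, *Cd101*, *Tarm1*, *Klra2*, *Bst1*, *Cd300ld* and *Lilrb4a* had one, with fold enrichments of 8.82 to 86.9 in WT GMPs.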

How the data were processed

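RNA-seq values were the TPM table that the authors deposited, with 9 WT libraries. The submitters' processing notes name kallisto 0.44.0, while the study's methods describe TopHat and HTSeq, so how TPM was made is not fully given in the sources used here. ChIP-seq and ATAC-seq peaks were deposited by the authors per library, with a fold enrichment ratio and a −log10 q-value for each peak. The notes name BWA 0.7.17, MACS2 2.1.0 and build mm10, and give no threshold. The GFI1 and H3K4me3 lists name chromosomes that GRCm38 lacks and were not used here.

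Each protein-coding gene of GENCODE M21 had 1 TSS, its 5′ end. Peaks counted as overlapping from 1 bp. The test of matNeu against preNeu was limma 3.58.1 in R 4.3.3 with a mean-variance trend, fitted over all 9 libraries on log2(TPM + 1), which understates changes of low genes, for genes that reached 1 TPM in 3 or more libraries. P-values were adjusted by Benjamini-Hochberg over all genes tested. Intervals are 95% Wilson intervals over promoters, which are not replicates. The fit was tested on simulated data. Depth is unknown for TPM and peak lists, so precision rests on the 3 libraries of each cell type.

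The members and the lists of genes and markers were chosen with earlier results of these data known. The text names the members highest in preNeu, in matNeu and in CHD4 enrichment, those nearest the 1 TPM threshold, the largest changes, and examples from the gene lists. *Fpr3*, *Vnn3*, *Ptgs2*, the weakly enriched predicted genes and the members on in preNeu that did not pass in matNeu were named after their values were seen. Alternatives changed the GMP threshold, the meaning of on, the pseudocount, filter and scaling, the H3K4me2 reading and the libraries used. Some genes of these lists are not reported here.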

Additional observations from a re-analysis of the deposited data

How the results depend on the processing

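The number of members ranged from 341 to 511 over the alternatives, and the share with CHD4 in *Gfi1*-/- GMPs from 22.0 to 24.7%. The share on in preNeu was 7.49% when every GMP library had to be below 1 TPM, 7.62% with a GMP mean below 0.5 TPM, 4.73% with at least 5 TPM in every library and 15.4% with a mean of at least 1 TPM. The share on in matNeu was 15.6% with every GMP library below 1 TPM, 11.8% with at least 5 TPM, 29.1% with a mean of at least 1 TPM and 24.1% with TPM rescaled to the same median. H3K4me2 shares in GMPs, preNeu and matNeu were 27.2%, 58.4% and 53.7% with a −log10 q of at least 5, and 53.4%, 64.8% and 59.8% over at least 500 bp. The preNeu share was 66% with the same number of peaks, and with the same covered length preNeu and matNeu had 29.3% and 40.7%. Leaving out 1 library at a time, 65 to 70 members were higher in matNeu and 11 to 12 lower. With the replicate number as a block they were 70 and 11. Deviations of same-numbered libraries correlated by -0.0394 to 0.123. Such values cannot settle whether same-numbered libraries came from the same mice, so pairing remains unknown. Except where a setting's construction shows it, as in stricter thresholds, the cause was not tested. Peak lists from 1 library and TPM without depth limit how small a difference can be read.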
